A study of Mus musculus with 3 samples.

Results

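Ribosome biogenesis and nucleolar genes were followed over days 0 to 6 as mouse embryonic fibroblasts were reprogrammed, and across 33 siRNA knockdowns. The 40 members were a list of genes whose proteins make or modify ribosomal RNA, assemble ribosomal subunits or build the nucleolus, listed by function, out of 50507 genes in the deposited count table. Of these, 7 are nucleolar scaffold and chaperone proteins, 7 form the box C/D and box H/ACA snoRNP particles, 2 are RNA polymerase I subunits, 10 act in the small subunit processome and 40S maturation, 12 act in 60S assembly and 2 are nucleolar RNA helicases.

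Primary fibroblasts of wild-type BL6 mice were used at passage 2. All cells, controls included, had been transduced with a tet-STEMCCA lentivirus carrying Oct4, Sox2, Klf4 and c-Myc and with an rtTA lentivirus. Doxycycline in the medium turned the factors on. Per the study's methods, the medium that started reprogramming also held a GSK3 inhibitor, a TGF-β inhibitor, ascorbic acid and LIF. In comparisons with Day00, the factors and this change of medium cannot be told apart. In the screen, cells were transfected with pooled siRNAs at 40 nM against 1 of 33 genes, with a non-targeting siRNA (nt) or with no siRNA (Mock) before induction, and were collected at day 6. The time course (Day00 to Day06) came from cells that were re-plated but not transfected. Each condition had 3 libraries, apart from Mock with 5 and siMtf1 with 2. The 5 Mock libraries came from 3 replicates, 2 of which had 2 libraries, and ranges and SDs of Mock are over the 5 libraries. RNA was taken in bulk from whole wells and profiled by CEL-Seq2, which counts the 3′ end of a transcript once through a molecular identifier, so fewer cells of a type and less RNA per cell cannot be told apart. Replicates were sequenced as 3 pools, and p-values measure the spread between these libraries, which may be partly technical.

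The nucleolus is where RNA polymerase I transcribes ribosomal DNA into a long precursor. Small nucleolar RNPs guide 2′-O-methylation (box C/D) and pseudouridylation (box H/ACA) of that precursor, processome and assembly factors cut and fold it, and the 40S and 60S particles are then exported. Ribosome biogenesis is a classic target programme of c-Myc, a factor of the cassette, and is known to be high in pluripotent and in fast dividing cells.

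Every one of the 40 members had counts, but depth differed widely between them. Total counts per library ran from 29656 to 235292 with a median of 73279, and a library held a median of 635 member counts (170 to 2260). Npm1, which encodes the nucleolar chaperone nucleophosmin, gave 44.5% of all member counts and Ncl, the gene of the rRNA-binding scaffold nucleolin, gave 13.4%. At the other end, Gar1 had 11 counts over all 127 libraries used. 23 members passed the filter on low counts and were tested. The 17 that did not pass were Rrp1b, Gar1, Polr1b, Rrp9, Utp4, Heatr1, Nop14, Bysl, Nob1, Tsr1, Bop1, Ebna1bp2, Mrto4, Ppan, Noc2l, Noc3l and Ddx18, with 11 to 526 counts each over the 127 libraries. They enter the sums below but not the single-gene tests.

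Npm1 lies at chr11:33152287-33163206 on the minus strand and Ncl at chr1:86344719-86359400 on the minus strand (GRCm38, GENCODE vM21). The last 400 bases of each member's transcripts were compared with all other transcripts, since this is the end that was counted. Npm1 had 6 near-identical copies (95% identity or more over at least 100 bases), which held 55590 counts against the 42075 of Npm1 itself. The most counted copy was Gm5611 with 21932 counts. Fbl, Nop56 and Wdr12 also had copies, with 880, 1409 and 1418 counts against their own 1112, 2012 and 1980. Of the 1418, 1271 were of Gm4879 and 147 of Pms1. Polr1b, Noc2l, Mrto4 and Ddx18, which were not tested, had matches too. Those of Polr1b held 10712 counts against its own 60. All these genes are left out of the sums without members that have near-identical copies. How reads were shared between these genes and their copies is uncertain, and the sums and the calls of Npm1 in the siRNAs described one by one are given below with and without its copies. No such copy was found for Ncl (12681 counts), Nop58 (7060 counts), Dkc1 (4068 counts) or Nhp2 (3272 counts). Exons of 16 members overlap a gene on the opposite strand, those of Dkc1, Nhp2 and Wdr43 for example Mpp1, Rmnd5b and CT010429.2, and the strand setting of the counting is not given in the sources used here.

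The cells carried the markers of fibroblasts: Col1a1, Col1a2 and Vim had 280, 510 and 355 counts at Day00. The summed fibroblast list (12 genes) was 8579 CPM (7656 to 9104) at Day00 and 3367 CPM (2964 to 3961) at Day06, while 14 epithelial and early pluripotency markers went from 32.0 CPM (20.5 to 42.3) to 197 CPM (119 to 289). CPM are counts scaled to the same total over the tested genes, after TMM correction of each library. The fibroblast list did not move as one: 10 of its 12 genes had a lower mean at Day06 than at Day00, but Lum went from 5.5 CPM to 122.7 CPM and was at 459.5 CPM in nt, and Thy1 went from 304 CPM (212 to 372) to 377 CPM (266 to 593), which overlapped. The 5 endothelial markers were at or near 0 (6.8 CPM at Day00 and 22.3 CPM at Day06). Of the 7 blood cell markers, Lyz2 had 31 counts at Day00 and 10 at Day06, and Csf1r and Tyrobp had none at either day. The part of these cell type markers in the results below was not tested.

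The summed members were higher at Day01 than at Day00, lower again at Day03 and highest at Day05. They were at 3633, 3599.6 and 3915 CPM in the 3 Day00 libraries and at 7473, 7232 and 7481 CPM at Day01. By Day03 they had come down to 4617, 5456 and 4073 CPM. At Day05 they reached 9617, 10898 and 10154 CPM, and at Day06 they were at 7211, 8151 and 7949 CPM. The libraries of Day00 did not overlap those of any later day, the Day03 libraries lay between the Day00 libraries and those of Day01, and each Day05 library lay above every Day04 library in this sum. In means ± SD of 3 libraries, the course was 3716 ± 173 at Day00, 7395 ± 142 at Day01, 6079 ± 426 at Day02, 4715 ± 697 at Day03, 9045 ± 292 at Day04, 10223 ± 643 at Day05 and 7770.2 ± 495 at Day06. As a share of all counts, the members took 0.360% of a library at Day00, 0.828% at Day01, 0.417% at Day03 and 0.952% at Day05. Because the list was chosen with earlier results of these data known, these sums are a description without a test. Cell type markers moved along this course. The fibroblast list went from 8579 CPM at Day00 to 4404 CPM (4057 to 4862) at Day01 without overlap, and was at 4861 CPM (4372 to 5542) at Day03 and 3274 CPM (2854 to 3527) at Day05. The blood cell markers went from 162 CPM at Day00 to 58.7 CPM at Day01, and the epithelial and early pluripotency markers from 26.0 CPM (11.2 to 36.3) at Day04 to 124 CPM (88.8 to 186) at Day05. Their part in the members' course was not tested.

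Day03 was also lower than Day01 without the 2 most counted genes. Without Npm1 and Ncl, the other 38 members summed to 2245 ± 240 CPM at Day00, 4071 ± 113 at Day01, 2661 ± 286 at Day03, 4723 ± 556 at Day05 and 4194 ± 176 at Day06 (SD, n = 3). With or without Npm1 and Ncl, every Day05 library lay above every Day01 library, but without them Day05 (4252 to 5336 CPM) overlapped Day04 (3897 to 4535 CPM). Without the members that have near-identical copies, Day05 (4967 to 6225 CPM) overlapped both Day04 (5029 to 5797 CPM) and Day01 (5022 to 5433 CPM). The 17 untested members together went from 417 ± 71.7 CPM at Day00 to 747 ± 14.8 at Day01, 502 ± 88.8 at Day03, 540 ± 34.5 at Day05 and 661 ± 105 at Day06, with their highest day at Day01.

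**Figure D1:**
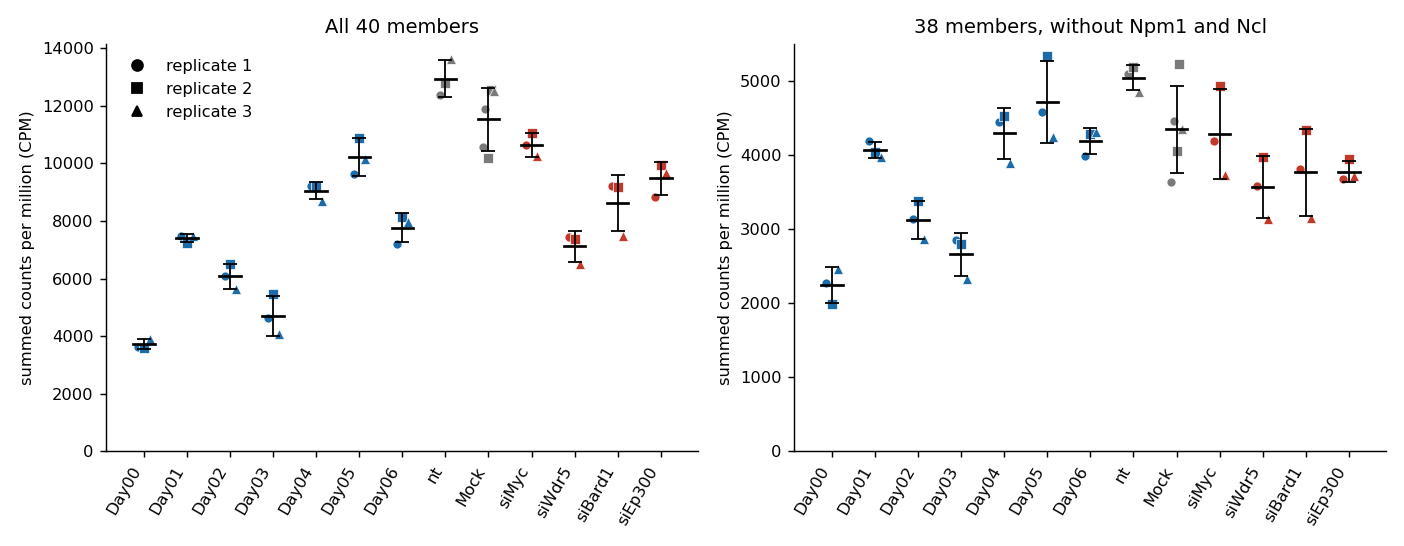
Summed level of the members (y axis, CPM) in each library of the time course (blue), the nt and Mock controls (grey) and 4 siRNAs (red); marker shapes are replicates, bars are means and whiskers are 1 SD. The left panel holds all 40 members, with Day03 (4073 to 5456 CPM) below Day01 and Day04, and the right panel leaves out Npm1 and Ncl.

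Single members were tested by edgeR's quasi-likelihood test against Day00, with Benjamini-Hochberg adjustment over the 3013 genes tested and a threshold of 0.05. At Day01 5 of the 23 tested members were called higher and none lower (9.89% of all tested genes were called, 3.09% higher). At Day02 4 were called higher (11.6% of all genes called), at Day03 1 (10.9%), at Day04 8 (18.7%), at Day05 9 (31.9%) and at Day06 7 (22.2%), and none was called lower at any day. Over all tested genes, 5.14% were called higher at Day02, 5.11% at Day03, 8.30% at Day04, 16.8% at Day05 and 10.7% at Day06. At Day03 the 1 call of 23 was near that background. The 6 members of largest fold at Day03 did not pass: Rrs1 (log2 fold change 1.33, adjusted p = 0.290), Nip7 (-0.997, adjusted p = 0.472), Ddx21 (0.97, adjusted p = 0.184), Utp20 (0.70, adjusted p = 0.621), Wdr12 (0.65, adjusted p = 0.378) and Wdr43 (-0.56, adjusted p = 0.438).

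The median log2 fold change of the tested members was 0.93 at Day01, 0.38 at Day02, 0.29 at Day03, 0.90 at Day04, 0.86 at Day05 and 0.70 at Day06, beside medians between -0.01 and 0.06 over all tested genes. Since a low gene can pass the filter through the days on which it is high, the same was read without a filter, where all 40 members enter. Their median was then 1.04 at Day01, 0.32 at Day03, 1.06 at Day04 and 0.83 at Day06, with 36, 29, 37 and 38 of 40 fitted above 0 and a median of 0.00 to 0.01 over all genes. Scaling by RLE in place of TMM shifted the median of all genes against Day00 by between -0.03 and -0.21, and relative to that shift the members kept their position, with a members' median of 0.66 at Day05 beside -0.18 for all genes.

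Among the nucleolar scaffold and chaperone proteins, Npm1 and Ncl followed different courses. Npm1 was at 657, 868 and 852 CPM at Day00, at 962, 1572 and 1020 CPM at Day03, at 3146, 3889 and 4536 CPM at Day05 and at 1795, 2259 and 2045 CPM at Day06. Its libraries at Day04 and Day05 were all above those of every other day of the time course. Npm1 was higher than at Day00 by a log2 fold change of 0.93 (SE 0.18, adjusted p = 4.11e-05) at Day01, 1.12 (SE 0.18, adjusted p = 1.13e-07) at Day02, 1.86 (SE 0.17, adjusted p = 1.90e-20) at Day04, 2.28 (SE 0.17, adjusted p = 6.41e-29) at Day05 and 1.35 (SE 0.17, adjusted p = 2.90e-11) at Day06. At Day03 it was the single member called (0.55, SE 0.19, adjusted p = 0.0365), and this call was lost when any of the 3 replicates was left out. With the counts of its copies added, Npm1 went from 1741 ± 260 CPM at Day00 to 2242 ± 443 at Day03 and 7923 ± 711 at Day05.

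Ncl was at 698, 741 and 596 CPM at Day00 and had reached 1948, 1747 and 1776 CPM by Day01. It was at 804, 1084 and 721 CPM at Day03 and at 2018, 1782 and 1807 CPM at Day04, so that Day01 and Day04 had its highest means, and the Day03 range met that of Day00. Ncl was called higher at Day01 (log2 fold change 1.45, SE 0.18, adjusted p = 1.57e-11), at Day02 (0.87, SE 0.18, adjusted p = 0.000143), at Day04 (1.48, SE 0.17, adjusted p = 2.89e-13), at Day05 (1.28, SE 0.18, adjusted p = 2.55e-10) and at Day06 (1.22, SE 0.18, adjusted p = 4.62e-09).

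The less counted scaffold proteins gave fewer calls. Nolc1, which encodes a chaperone that shuttles snoRNPs between nucleolus and Cajal body, had 13 counts at Day00 and 40 at Day06 over 3 libraries and was called at Day06 (log2 fold change 1.29, SE 0.50, adjusted p = 0.0466), a call lost without each of the 3 replicates in turn. Mybbp1a, a Myb-binding repressor in the nucleolus, was at 20.5, 0 and 82.8 CPM at Day00 and at 179, 152 and 102 CPM at Day04. Its Day04 call (1.40, SE 0.53, adjusted p = 0.0456) was lost without replicate 1 and without replicate 2. Gnl3, the gene of the GTP-binding stem cell protein nucleostemin, and Lyar, a zinc finger protein of the nucleolus, passed no test against Day00: Gnl3 had mean levels of 77.7 CPM at Day00 and 175 CPM at Day06, and Lyar of 51.2 CPM at Day00, 144 CPM at Day01 and 88.0 CPM at Day06.

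Of the box H/ACA genes, Dkc1 was called on 5 of the 6 days and Nhp2 on 4. Dkc1, which encodes the pseudouridine synthase dyskerin, was at 164, 106 and 124 CPM at Day00, at 298, 428 and 410 CPM at Day01, at 192, 163 and 141 CPM at Day03 and at 622, 451 and 438 CPM at Day05. All Day01 and Day05 libraries lay above all Day00 libraries, and at Day03 the ranges overlapped. Dkc1 was called at Day01 (log2 fold change 1.60, SE 0.33, adjusted p = 0.000121), at Day02 (1.08, SE 0.34, adjusted p = 0.0218), at Day04 (1.79, SE 0.31, adjusted p = 7.26e-07), at Day05 (1.94, SE 0.31, adjusted p = 2.50e-08) and at Day06 (1.66, SE 0.32, adjusted p = 9.92e-06). The Day02 call was lost without replicate 2 and without replicate 3.

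Nhp2, the gene of an RNA-binding core protein of the same particle, was not called at Day01. It was at 61.6, 106 and 99.3 CPM at Day00, at 138, 183 and 148 CPM at Day01, at 368, 491 and 374 CPM at Day05 and at 267, 361 and 409 CPM at Day06. The log2 fold change was 1.15 (SE 0.40, adjusted p = 0.0429) at Day02, 1.25 (SE 0.38, adjusted p = 0.0106) at Day04, 2.16 (SE 0.35, adjusted p = 6.19e-08) at Day05 and 1.96 (SE 0.36, adjusted p = 3.71e-06) at Day06. The Day02 call was lost without each replicate in turn and the Day04 call without replicate 2 and without replicate 3. Nop10, a small protein of the particle, was called at Day05 alone (1.47, SE 0.51, adjusted p = 0.0180), with 10 counts at Day00 and 40 at Day05, and that call was lost without replicate 2 and without replicate 3. Gar1, the remaining core member, was too low to test.

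Of the 3 box C/D core genes, Nop58 carried most counts. It was at 287, 233 and 273 CPM at Day00, at 390, 379 and 239 CPM at Day01, at 262, 253 and 220 CPM at Day03 and at 672, 1088 and 715 CPM at Day05. Nop58 was called at Day04 (log2 fold change 0.84, SE 0.26, adjusted p = 0.0112, lost without replicate 2) and at Day05 (1.57, SE 0.25, adjusted p = 2.12e-08), while its Day01 libraries overlapped those of Day00. Nop56, its partner in the particle, was called at Day05 alone (1.15, SE 0.38, adjusted p = 0.0111, lost without replicate 3). Fbl, which encodes the methyltransferase fibrillarin, was called at Day06 alone (1.49, SE 0.45, adjusted p = 0.00836, lost without replicate 3), with 103, 42.3 and 57.9 CPM at Day00 and 208, 163 and 184 CPM at Day06. Nop56 and Fbl both have near-identical copies, and their values are uncertain to that extent.

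The RNA polymerase I subunits showed no change that passed the test. Polr1c, a subunit shared with RNA polymerase III, was at 185, 127 and 174 CPM at Day00 and at 252, 343 and 239 CPM at Day06, and its ranges overlapped between Day00 and Day01 to Day05. Polr1b, the second largest subunit, had 60 counts over all libraries and was not tested.

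The genes of the small subunit processome gave no call against Day00 either. Of 10 genes 3 were tested: Wdr43, Wdr75 and Utp20, all encoding processome proteins. Wdr43 was at 164, 233 and 182 CPM at Day00, at 140, 163 and 106 CPM at Day03 and at 359, 385 and 210 CPM at Day04, and between Day03 and Day04 it was called higher (log2 fold change 1.23, SE 0.34, adjusted p = 0.00723, lost without replicate 2). Wdr75 and Utp20 had 6 and 9 counts at Day00 over 3 libraries. All 10 genes together summed to 461 CPM at Day00, 781 CPM at Day01, 517 CPM at Day03, 875 CPM at Day04 and 569 CPM at Day06.

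Of the 12 genes of 60S assembly 6 were tested, and Rrs1, Wdr12 and Nifk were called on some day. Rrs1, which recruits the 5S RNP to the pre-60S particle, had 5 counts at Day00, 25 at Day01, 33 at Day04 and 42 at Day06. In CPM it was at 41.1, 21.2 and 16.6 at Day00 and at 163, 217 and 130 at Day06, the largest fold of any tested member at that day (log2 fold change 2.67, SE 0.63, adjusted p = 0.000389). Its calls at Day01 (2.15, SE 0.68, adjusted p = 0.0232) and Day04 (2.01, SE 0.66, adjusted p = 0.0182) rest on low counts; the first was lost without replicate 2 and without replicate 3, and the second without each replicate in turn. Nifk, whose protein binds the Ki-67 antigen and takes part in 60S processing, was called at Day05 (1.00, SE 0.30, adjusted p = 0.00518, lost without replicate 2), as was Wdr12 of the PeBoW complex (0.95, SE 0.39, adjusted p = 0.0480, lost without each replicate in turn). Pes1 of the same complex, Nip7 and Nop16 were not called at any day, with 10, 10 and 13 counts at Day00 and 14, 17 and 24 at Day06.

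Ddx21, an RNA helicase that links RNA polymerase I transcription with rRNA processing, had its highest mean at Day01. It was at 61.6, 63.5 and 82.8 CPM at Day00, at 390, 171 and 137 CPM at Day01 and at 61.2, 91.0 and 82.1 CPM at Day02. Ddx21 was called at Day01 (log2 fold change 1.46, SE 0.44, adjusted p = 0.0148, lost without replicate 1 and without replicate 2) and at Day04 (1.19, SE 0.42, adjusted p = 0.0332, lost without each replicate in turn). The second helicase, Ddx18, was not tested.

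**Figure D2:**
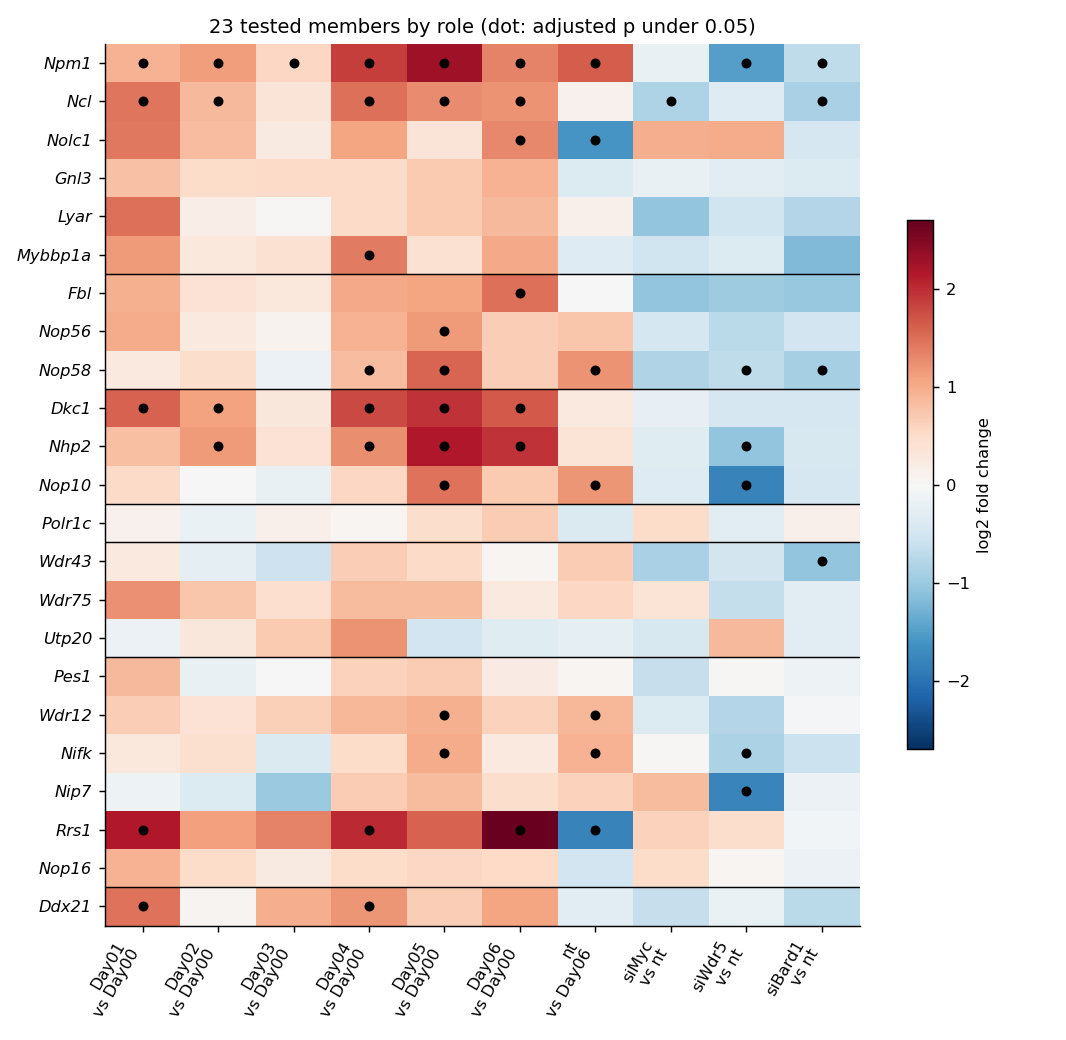
Log2 fold change (colour) of the 23 tested members (rows, grouped by role with black lines between roles) in 10 comparisons (columns), with a dot where the adjusted p was under 0.05. Npm1 is called in all 6 days against Day00, and the columns of Day04, Day05 and Day06 hold 8, 9 and 7 calls.

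**Figure D3:**
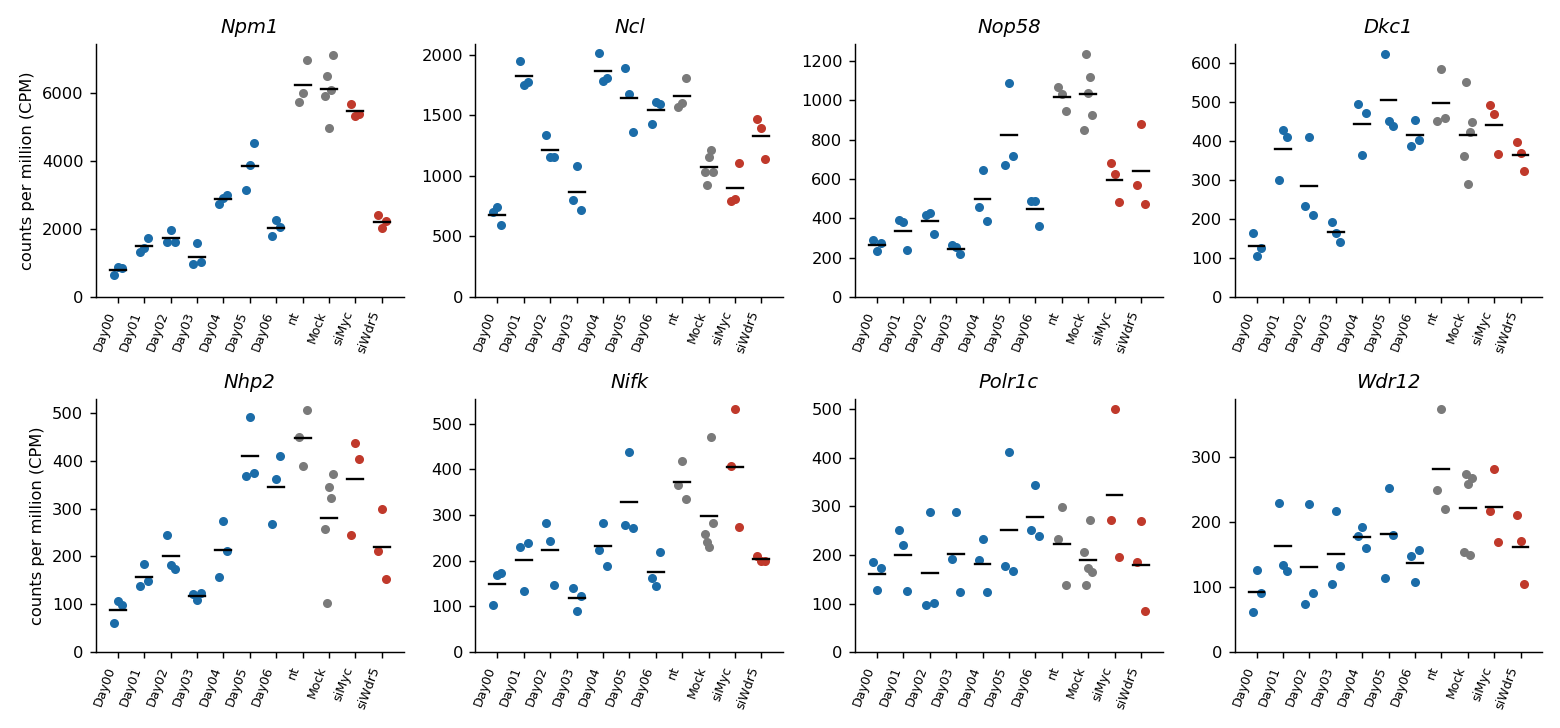
Level (y axis, CPM) of the 8 members with the most counts in each library (points) of the time course (blue), nt and Mock (grey) and siMyc and siWdr5 (red), with bars at the mean. Ncl is highest at Day01 and Day04, Npm1 at Day05 within the time course, and Npm1 is higher again in nt and Mock.

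Neighbouring days were also compared, a choice made after the course had been seen. From Day01 to Day02 Ddx21 (log2 fold change -1.39, SE 0.41, adjusted p = 0.0250) and Ncl (-0.58, SE 0.16, adjusted p = 0.0131) were called lower, 2 of 23 members beside 4.81% of all genes (1.39% lower), and from Day02 to Day03 Npm1 alone (-0.57, SE 0.17, adjusted p = 0.0303) was called lower (2.82% of all genes, 1.36% lower). None of these 3 calls was kept without each replicate in turn. From Day03 to Day04 5 members were called higher (11.9% of all genes, 5.31% higher): Dkc1 (1.47, SE 0.29, adjusted p = 4.31e-05), Npm1 (1.31, SE 0.16, adjusted p = 6.59e-12), Wdr43, Ncl (1.13, SE 0.17, adjusted p = 1.39e-08) and Nop58 (1.00, SE 0.26, adjusted p = 0.00390). Dkc1, Npm1 and Ncl kept this call without each replicate in turn, and Wdr43 and Nop58 lost it without replicate 2. From Day04 to Day05 Nhp2 (0.91, SE 0.26, adjusted p = 0.0244) and Nop58 (0.73, SE 0.20, adjusted p = 0.0165) were called higher (4.78% of all genes, 3.42% higher), and Nhp2 lost the call without each replicate in turn and Nop58 without replicate 2 and without replicate 3. From Day05 to Day06 Npm1 (-0.93, SE 0.15, adjusted p = 3.65e-07) and Nop58 (-0.91, SE 0.22, adjusted p = 0.00195) were called lower (7.87% of all genes, 4.55% lower), and Nop58 lost its call without replicate 2 and without replicate 3. The members of largest fold that did not pass in these comparisons had adjusted p between 0.0716 and 0.763.

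Genes of the cell cycle had their lowest sums at Day03. The 18 S phase genes summed to 978 ± 106 CPM at Day00, 1399 ± 105 at Day01, 588 ± 39.7 at Day03 and 1191 ± 185 at Day05, and the 14 G2 and M phase genes to 1341 ± 65.2, 2294 ± 113, 598 ± 155 and 1443 ± 219 CPM on the same days (SD, n = 3). At Day03 both sums were below Day00 in all 3 libraries, whereas the members were above Day00. The part of the cell cycle in the members' levels was not tested.

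The rest of the pathway was read from a second list. Of 129 further genes of the pathway that had counts, 38 were tested. None was called at Day01 or Day02 by edgeR, while DESeq2 called 0 and 1 and limma on the deposited log2 values 4 and 1. With edgeR 1 was called lower at Day03, 3 higher and 1 lower at Day04, 8 higher and 2 lower at Day05 and 1 higher at Day06. Of all tested genes, 10.9%, 18.7%, 31.9% and 22.2% were called on these days. Counted over both directions, the calls were below this background on each of them. In the higher direction alone, 8 of 38 at Day05 was above the 16.8% of all tested genes called higher. Their median log2 fold change was 0.14 at Day01, -0.14 at Day03, 0.59 at Day05 and 0.17 at Day06. The gene called at Day06 was Exosc7, which encodes a subunit of the RNA exosome (2.48, SE 0.91, adjusted p = 0.0343). The 129 genes summed to 5431 ± 249 CPM at Day00, 6433 ± 208 at Day01, 5143 ± 360 at Day03, 7447 ± 438 at Day05 and 6399 ± 592 at Day06, so they too were lower at Day03 than at Day01. The Exosc7 call was lost without each replicate in turn.

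Ribosomal protein genes, whose products the assembly factors join to the rRNA, were followed for comparison. Of 74 tested, 3 were called higher at Day01 (3.09% of all genes), near the background, 20 at Day02 (5.14%), 13 at Day03 (5.11%), 21 at Day04 (8.30%), 44 at Day05 (16.8%) and 27 at Day06 (10.7%), and 1 was called lower, at Day03. Their median log2 fold change was 0.19 at Day01, 0.51 at Day02, 0.41 at Day03, 0.95 at Day05 and 0.61 at Day06. The sum of all 88 went from 23890.5 ± 4818 CPM at Day00 to 27859 ± 3611 at Day01, 33486 ± 4906 at Day03 and 45676 ± 4960 at Day05. Their mean was higher at Day03 than at Day01, the reverse of the members' order. Day03 was above Day01 within each of the 3 replicates, while the ranges of the 2 days overlapped.

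**Figure D4:**
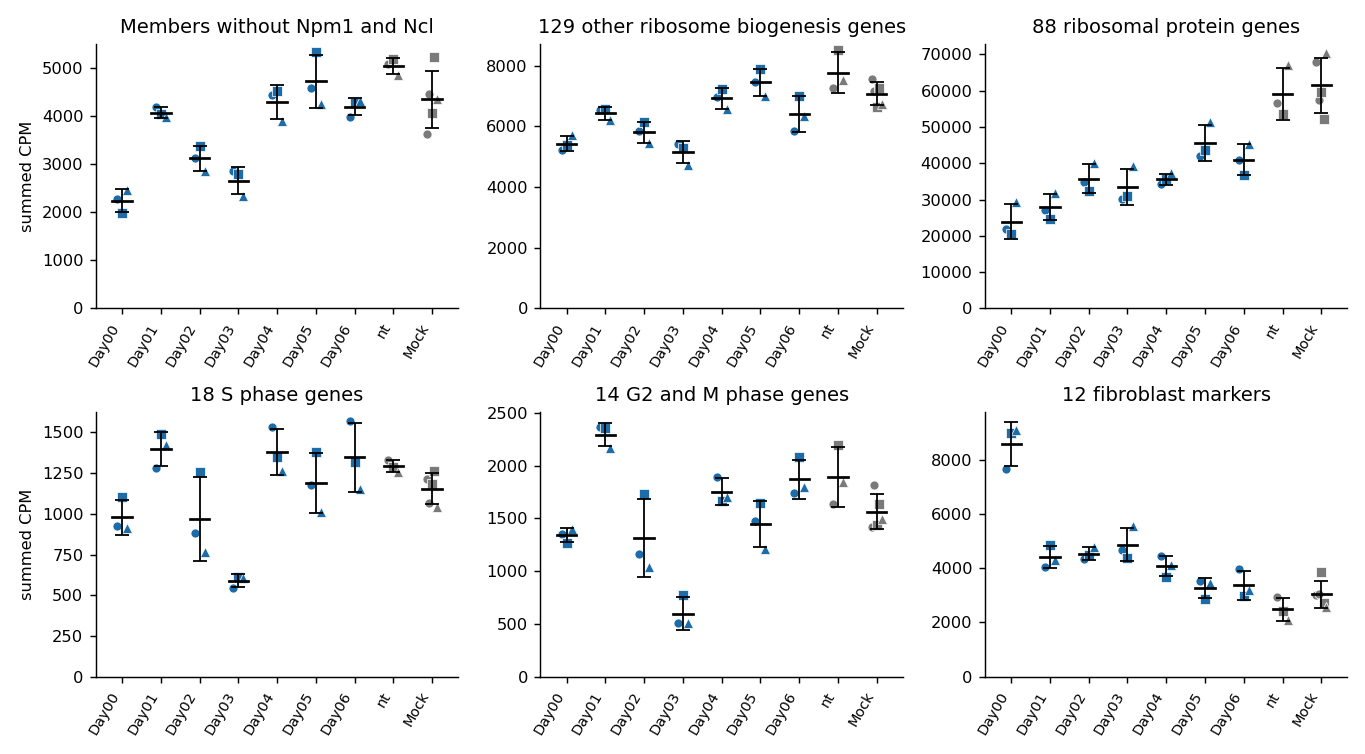
Summed level (y axis, CPM) by library over the days and in nt and Mock for the members without Npm1 and Ncl and for 5 other gene lists; bars are means and whiskers 1 SD. S phase and G2 and M phase genes are lowest at Day03 (588 and 598 CPM), and ribosomal protein genes are higher at Day05 (45676 CPM) than at Day01 (27859 CPM).

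The summed members were higher in the transfected controls than in the untransfected cells of the same day. The summed members were at 12389.8, 12787 and 13643 CPM in nt and between 10175 and 12536 CPM in the 5 Mock libraries, against 7211 to 8151 CPM at Day06, so that neither control overlapped Day06. For Mock this did not hold without Npm1 and Ncl, where it was at 3638 to 5238 CPM and overlapped Day06 (3991 to 4308 CPM). Without all members that have near-identical copies, the Mock mean was 4781 CPM, below the 5086 CPM of Day06. The fibroblast list was at 2100 to 2948 CPM in nt, below all Day06 libraries (2964 to 3961), while in Mock (2552 to 3863) it overlapped them. The ribosomal protein genes were at 53467 to 67095 CPM in nt and at 36889 to 45292 CPM at Day06. The part of the markers in this gap was not tested. 5 of 23 members were called higher in nt than at Day06 and 2 lower (26.6% of all genes were called, 15.6% higher and 11.0% lower), a share near the background. Higher were Npm1 (log2 fold change 1.63, SE 0.15, adjusted p = 8.11e-21), Nop58 (1.22, SE 0.22, adjusted p = 1.81e-06), Nop10 (1.19, SE 0.42, adjusted p = 0.0244), Nifk (0.94, SE 0.27, adjusted p = 0.00578) and Wdr12 (0.90, SE 0.32, adjusted p = 0.0280). Lower were Rrs1 (-1.81, SE 0.53, adjusted p = 0.00601) and Nolc1 (-1.59, SE 0.50, adjusted p = 0.0111). Npm1 and Nop58 kept the call without each replicate in turn. Of the others, Wdr12 lost it without each replicate in turn, Nifk without replicate 1 and without replicate 2, Nop10 and Nolc1 without replicate 1 and without replicate 3, and Rrs1 without replicate 2 and without replicate 3. The members did not move as one. Their median log2 fold change was 0.14 over the 23 tested (15 fitted above 0), beside -0.01 over all tested genes. With RLE scaling, which moved the median of all tested genes to -0.15, it was -0.01, and over all 40 members without a filter it was -0.13, with 19 above 0. The 17 untested members summed to 392.1 to 494 CPM in nt, below all Day06 libraries (560 to 770). Transfection, plating and any handling of the 2 experiments cannot be told apart here.

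Npm1 made up most of this gap. Npm1 was at 5729, 5997 and 6977 CPM in nt against 1795, 2259 and 2045 CPM at Day06. Without Npm1 and Ncl the members were at 5049 ± 169 CPM in nt and 4194 ± 176 CPM at Day06, a ratio of 1.20 in place of 1.67. For each Npm1 count, the copies had 0.962 counts at Day06 (0.917 to 1.06 by library) and 1.92 counts in nt (1.59 to 2.34), and Npm1 with its copies was at 4026 ± 396 CPM at Day06 and 18955 ± 828 CPM in nt. Over the days of the time course, with the libraries of a day pooled, the copies had 0.841 to 1.16 counts per Npm1 count. Single libraries ran from 0.556 at Day02 to 1.69 at Day01, so that the highest overlapped nt. In Mock the copies had 1.61 (1.32 to 1.92 by library), which also overlapped the time course. In siBard1 they had 1.03 (0.877 to 1.21), within the range of the time course libraries.

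Mock and nt differed in 2 members, both lower in Mock (1.56% of all genes called, 0.531% lower). Wdr43 was at 416, 254 and 310 CPM in nt and at 129, 103, 144, 74.5 and 104 CPM in Mock (log2 fold change -1.56, SE 0.36, adjusted p = 0.00503), and the groups did not overlap. Ncl was at 1565, 1600 and 1805 CPM in nt and at 1032, 927, 1153, 1216 and 1030 CPM in Mock (-0.65, SE 0.16, adjusted p = 0.00723), again without overlap. Both calls were lost without replicate 1 and without replicate 3. With the Mock libraries of a replicate summed, both were kept (adjusted p = 0.00822 for Wdr43 and 0.0195 for Ncl). The further members of largest fold were Utp20 (-1.51, adjusted p = 0.641), Gnl3 (-0.72, adjusted p = 0.569), Nip7 (0.62, adjusted p = 0.618) and Nhp2 (-0.58, adjusted p = 0.339), none of which passed. Since nt is the reference for every siRNA below, the Mock levels of these 2 genes are given beside their calls.

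Knockdown of Myc asks how the programme responds to a factor of the cassette itself. Per the study's methods each pool held 3 siRNAs, and the table read here lists 2 for each target. Those against Myc and against Wdr5 are shown as their sense strands, since the next results turn on these 2 knockdowns; capitals are not used. The 2 listed Myc siRNAs match coding sequence, in 8 and 7 of 8 annotated coding transcripts of Myc. The 2 listed Wdr5 siRNAs also match coding sequence, in 1 and 2 of 2 coding transcripts.
Myc siRNA first: cgaggaagagaauuucuau
Myc siRNA second: gguagugauccucaaaaaa
Wdr5 siRNA first: ccaguuaagccaaacuaug
Wdr5 siRNA second: gccguucauuucaaccgug

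Myc itself was too low to check the knockdown: 2 counts in siMyc, 2 in nt, 0 in Mock and 4 at Day06, each over all libraries of the condition. Whether transcripts of the cassette are counted as Myc is not known here.

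The summed members were at 10646, 11068 and 10241 CPM in siMyc, below all 3 nt libraries and within the range of the 5 Mock libraries. 1 of 23 members was called (0.299% of all genes, 0.166% lower): Ncl, at 790, 813 and 1108 CPM, was lower than in nt (log2 fold change -0.82, SE 0.18, adjusted p = 0.00549). Its Mock range was 927 to 1216 CPM. The call was lost without each replicate in turn (adjusted p between 0.0694 and 0.187), and against nt and Mock pooled the change was -0.51 with an adjusted p of 0.366. The other 5 named members did not pass: Lyar (-1.07, adjusted p = 0.618), Fbl (-1.06, adjusted p = 0.455), Nolc1 (0.99, adjusted p = 0.651), Wdr43 (-0.88, adjusted p = 0.408) and Nip7 (0.86, adjusted p = 0.550). The median log2 fold change was -0.35 over the 23 tested members and -0.30 over all 40 without a filter, beside -0.01 over all tested genes, with 14 of 40 members fitted above 0. For Mock against nt, which shares the nt libraries, the median was -0.30 over the tested members. By role, the siMyc to nt ratio of summed levels was 0.585 for the box C/D core and 0.586 for the RNA helicases. It was 0.801 for the small subunit processome, 0.810 for the scaffold proteins and 0.852 for box H/ACA. For 60S assembly it was 1.13 and for the RNA polymerase I subunits 1.44. The RNA polymerase I subunits, at 272 and 500 CPM in replicates 1 and 2 of siMyc, overlapped nt (139 to 299 CPM). The helicases overlapped nt too (105 to 155 CPM), and both roles hold 2 genes with low counts. The box C/D core genes, at 980, 750 and 821 CPM in sum, lay below all nt libraries (1399 to 1540) and all Mock libraries (1161 to 1614), and none of Fbl, Nop56 and Nop58 was called. These sums are a description without a test. The epithelial and early pluripotency markers were at 81.7, 0 and 117 CPM in siMyc, also below all nt (131 to 316) and all Mock libraries (124 to 275), and the fibroblast list was at 2594 CPM (2407 to 2913), within the range of nt. The part of these markers in the members' level was not tested. None of the 38 other ribosome biogenesis genes was called in siMyc by edgeR, by DESeq2 or by limma. At an unadjusted p under 0.05, edgeR counted 4 of the 23 members and 5 of the 38 other genes, beside 9.49% of all tested genes.

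Over all 33 siRNAs, 28 of 759 tests of members were called, 27 lower and 1 higher (2.57% of all tests over all genes were called, 1.28% lower and 1.29% higher). 16 siRNAs had no member called and 13 had 1. All siRNAs share the 3 nt libraries, so these calls are not independent of each other. Npm1 was called lower in 9 siRNAs and Ncl in 8, which together make up 17 of the 28 calls. Ncl was also lower in Mock than in nt, whereas Npm1 was at 6112 ± 796 CPM in Mock and 6234 ± 657 CPM in nt. Without replicate 3, the pool with the deepest libraries (a median of 127079 counts against 64227 and 63122), 2 calls were left over all siRNAs, and without replicate 1 and replicate 2 there were 18 and 16.

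By mean summed level, siWdr5, siBard1 and sip53 were lowest and siNcor1, siTdrd7 and siPou5f1 highest. The mean of 28 siRNAs lay below the lowest nt library, and in 26 of them every library did. Against Mock only siWdr5, siBard1 and siEp300 had every library below the lowest library. These 3 siRNAs were also the ones with at least 3 members called, which is read below against the share of all genes called in each. Without Npm1 and Ncl none of the 3 lay wholly below Mock (3638 to 5238 CPM). The siEp300 libraries were then at 3674, 3943 and 3724 CPM, and replicate 2 was at 4335 CPM in siBard1 and 3980 CPM in siWdr5.

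siWdr5 had the lowest summed level, with 7449, 7392 and 6512 CPM. Wdr5 encodes a core subunit of complexes that methylate histone H3 lysine 4, and the protein is also known as a partner of c-Myc on chromatin. 6 of 23 members were called lower and none higher (27.2% of all genes called, 15.1% lower), and the share of members called in either direction was near the background. Npm1, at 2404, 2018 and 2231 CPM, was lower than in nt by a log2 fold change of -1.49 (SE 0.14, adjusted p = 4.45e-18) and kept this call without each replicate in turn. With the copies added its log2 fold change was -1.70 (adjusted p = 4.70e-21). Nop10 (-1.80, SE 0.47, adjusted p = 0.00162), Nip7 (-1.78, SE 0.58, adjusted p = 0.0136), Nhp2 (-1.07, SE 0.28, adjusted p = 0.00177), Nifk (-0.86, SE 0.27, adjusted p = 0.0116) and Nop58 (-0.69, SE 0.20, adjusted p = 0.00554) were called too, and all 5 lost the call without replicate 3. Nip7 lost it also without replicate 1 and Nifk without replicate 2.

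Ncl and Dkc1 were not among the genes called in siWdr5. Ncl was at 1466, 1393 and 1139 CPM, below the nt libraries (1565 to 1805) but above or within those of Mock (927 to 1216). The fibroblast list was at 6106 CPM (5745 to 6417) in siWdr5 against 2485 CPM (2100 to 2948) in nt. The epithelial and early pluripotency markers were at 39.6, 99.5 and 57.0 CPM, below all nt libraries (131 to 316) and all Mock libraries (124 to 275). The ribosomal protein genes were at 36219.5 CPM against 59016, with 42 of 74 called lower. Among the other ribosome biogenesis genes 8 of 38 were called lower. The part of these markers in the members' level was not tested. The Wdr5 message had 7 counts in siWdr5 and 9 in nt, too few to check the knockdown at day 6. By RT-qPCR at an earlier day, the study reports efficient knockdown of the Wdr5 message.

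siBard1 followed, with 9214, 9167 and 7484 CPM in sum. Bard1 encodes the partner of Brca1 in a ubiquitin ligase of DNA repair. 4 members were called lower (10.3% of all genes called, 4.78% lower): Wdr43 (log2 fold change -1.07, SE 0.33, adjusted p = 0.0194), Nop58 (-0.90, SE 0.21, adjusted p = 0.00106), Ncl (-0.87, SE 0.17, adjusted p = 3.49e-05) and Npm1 (-0.68, SE 0.14, adjusted p = 0.000133). With its copies added, Npm1 had a log2 fold change of -1.22 (adjusted p = 6.75e-12). All 4 were lost without replicate 3, and Wdr43 also without replicate 1. Wdr43 and Ncl are the 2 genes that were lower in Mock as well. In siBard1 Wdr43 was at 144, 171 and 146 CPM and Ncl at 1198, 874 and 757 CPM, and both overlapped the Mock libraries (74.5 to 144 and 927 to 1216). Nop58, at 591, 583 and 479 CPM, lay below all nt libraries (948 to 1066) and all Mock libraries (852 to 1236). The fibroblast list was at 4079 CPM (3461 to 4998) in siBard1, and its part in these values was not tested. Bard1 itself had 0 counts in siBard1 and 2 in nt, too few to check the knockdown here. By RT-qPCR at an earlier day, the study reports efficient knockdown of the Bard1 message.

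siEp300, against a histone acetyltransferase, had 8835, 9929 and 9678 CPM in sum and 3 members called lower (5.68% of all genes called, 2.66% lower). These were Fbl (-1.17, SE 0.38, adjusted p = 0.0452), Nop58 (-0.81, SE 0.20, adjusted p = 0.00335) and Npm1 (-0.61, SE 0.14, adjusted p = 0.00107), or -0.81 with the copies added (adjusted p = 1.48e-05). All 3 were lost without replicate 3, Fbl without each replicate in turn and Nop58 also without replicate 1. Ncl, at 1601, 1560 and 1665 CPM, was within or just below the range of nt (1565 to 1805) here. The fibroblast list was at 4889, 3291 and 3977 CPM, above all nt libraries (2100 to 2948), and its part in these values was not tested. Ep300 itself had 17 counts in siEp300, 3 in nt and 9 in Mock, which does not show a knockdown of the message at day 6.

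In sip53 Npm1 (-0.55, SE 0.14, adjusted p = 0.0129) and Wdr43 (-1.46, SE 0.40, adjusted p = 0.0229) were called lower (1.96% of all genes called, 1.10% lower), with a sum of 9072, 8469.6 and 10423 CPM. With its copies added, Npm1 had a log2 fold change of -0.83 (adjusted p = 3.11e-05). Without replicate 2 and without replicate 3 both were lost, and Wdr43 was lost also without replicate 1. Wdr43, at 84.0, 143 and 125.4 CPM, overlapped the Mock libraries (74.5 to 144). The fibroblast list was at 4557, 3764 and 3511 CPM, above all nt libraries, and its part in these values was not tested. At the upper end, siNcor1, siTdrd7 and siPou5f1 summed to 14437 ± 1794, 14060.5 ± 1067 and 13624 ± 2177 CPM (SD, n = 3), and their ranges overlapped that of nt. Within replicates, siTdrd7 was above nt in 3 of 3, and siNcor1 and siPou5f1 in 2 of 3. Without Npm1 and Ncl the sums were 5127 ± 451, 5680 ± 597 and 5582 ± 955 CPM, beside 5049 ± 169 in nt. The fibroblast list was at 1193 to 1466 CPM in siPou5f1, below all nt libraries, and at 1782 to 2936 CPM in siNcor1 and 1855 to 2277 CPM in siTdrd7, where it overlapped nt. The part of these markers was not tested. The single call of a member higher than in nt was Nip7, which encodes a 60S assembly factor, in siPou5f1 (1.36, SE 0.40, adjusted p = 0.0190, 5.77% of all genes called and 3.58% higher), lost without replicate 3. In siNcor1 Ncl was called lower (4.45% of all genes called, 1.03% lower), although the sum was the highest of all siRNAs. Ncl was at 979, 1214 and 1141 CPM there, within the range of Mock (927 to 1216).

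**Figure D5:**
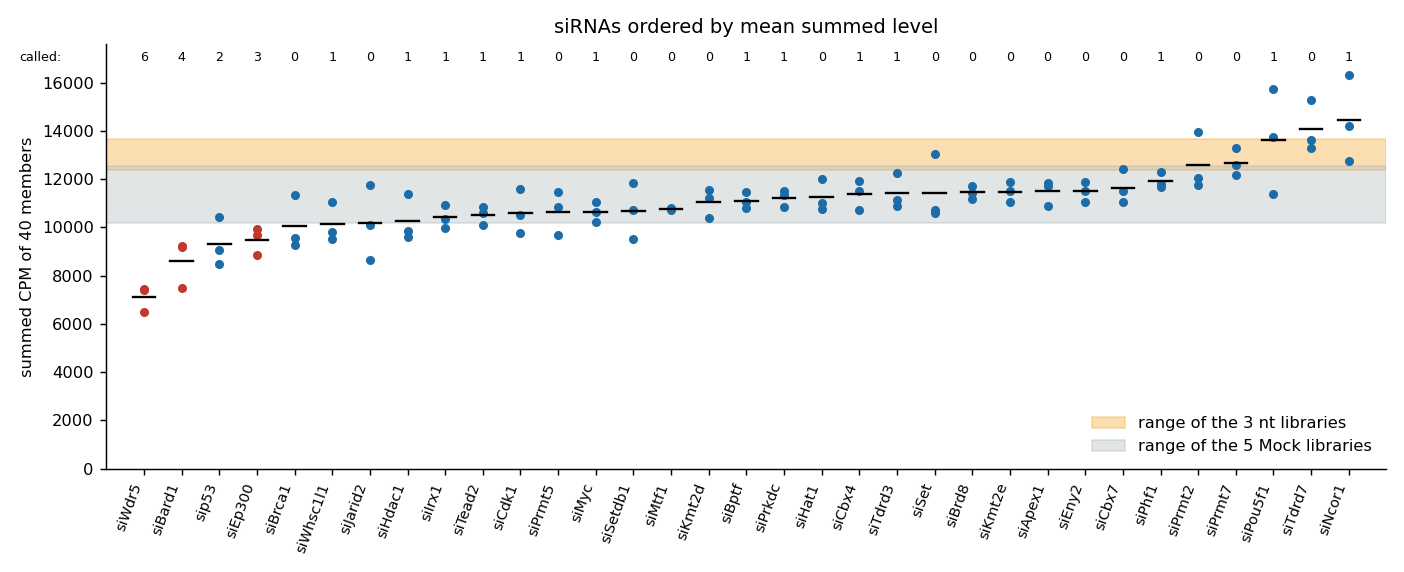
Summed level of the 40 members (y axis, CPM) in each library of the 33 siRNAs, ordered by mean (bars), with the ranges of the nt (orange) and Mock (grey) libraries; numbers on top are members called against nt, and red points mark siRNAs with at least 3. With all 40 members in the sum, siWdr5, siBard1 and siEp300 lie wholly below the Mock range, which does not hold without Npm1 and Ncl.

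Promoters were searched for 2 motifs because c-Myc binds the E-box CACGTG together with Max and because the ETS core CCGGAAG is frequent in genes of general functions. RefSeq promoter sequences (GRCm38.p6, 250 bases before to 50 after the start) were found for 36 members, with 40 promoters; Npm1, Fbl, Rrs1 and Bop1 had no entry. On either strand CACGTG was in 6 of the 40 promoters (15%, beside 7.15% of 32851 promoters in the table), those of Mybbp1a, Pes1, Tsr1, Utp20, Utp4 and Wdr43. CCGGAAG was in 13 (32.5%, beside 8.86%), those of Ebna1bp2, Gar1, Heatr1, Nhp2, Nip7, Noc2l, Noc3l, Nolc1, Polr1c, Ppan, Tsr1 and Utp4. Matches of the 2 motifs cannot overlap each other. Of the members with CACGTG, Mybbp1a, Pes1, Utp20 and Wdr43 were tested. Mybbp1a was called on 1 day and Wdr43 between Day03 and Day04, in Mock, in siBard1 and in sip53. None of them was called in siMyc. The promoter of Ncl, the member called in siMyc, held neither motif. A match of letters is a description and not a site of binding.

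Shown are the promoters of 2 tested members with the E-box, Mybbp1a (chr11:72441077-72441376, plus strand) and Wdr43 (chr17:71615965-71616264, plus strand), and of Nhp2 with the ETS core (chr11:51619523-51619822, plus strand). Capitals mark the matches.
Mybbp1a: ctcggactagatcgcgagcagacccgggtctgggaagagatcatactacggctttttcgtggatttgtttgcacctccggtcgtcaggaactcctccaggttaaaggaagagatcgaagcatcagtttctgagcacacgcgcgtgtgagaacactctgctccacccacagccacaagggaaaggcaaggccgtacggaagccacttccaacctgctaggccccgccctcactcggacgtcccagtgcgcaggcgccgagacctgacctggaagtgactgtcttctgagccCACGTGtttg
Wdr43: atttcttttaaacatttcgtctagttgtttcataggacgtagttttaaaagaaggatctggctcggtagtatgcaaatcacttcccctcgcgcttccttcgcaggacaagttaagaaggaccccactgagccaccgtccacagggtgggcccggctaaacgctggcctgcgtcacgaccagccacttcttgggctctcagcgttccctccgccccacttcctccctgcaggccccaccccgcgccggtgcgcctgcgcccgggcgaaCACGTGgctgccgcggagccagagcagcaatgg
Nhp2: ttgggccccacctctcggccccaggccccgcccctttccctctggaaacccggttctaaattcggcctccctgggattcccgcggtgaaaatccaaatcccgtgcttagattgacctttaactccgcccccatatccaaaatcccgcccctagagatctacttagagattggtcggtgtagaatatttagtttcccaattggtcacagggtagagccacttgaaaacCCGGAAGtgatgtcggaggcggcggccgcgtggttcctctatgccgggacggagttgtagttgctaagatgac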

How the data were processed

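Bulk RNA of 129 libraries was profiled by CEL-Seq2. Per the study's methods, Bowtie2 was used for mapping (mm10, GENCODE vM13), and the authors deposited counts of molecules per gene, together with log2 values for 10568 genes. The condition and replicate of each library were read from the column names, and 127 libraries were used because 2 did not pass. No column of another sample was used. From the counts, edgeR 4.0.16 (R 4.3.3) was fitted over all 127 libraries with TMM scaling, a filter on low counts by condition, and condition and replicate as terms, and 3013 genes were tested by the quasi-likelihood test with Benjamini-Hochberg adjustment (threshold 0.05). Replicate entered the model because the 3 replicates were sequenced as separate pools, and libraries with the same replicate number deviated together (median correlation 0.0981, against -0.0685 for different numbers). Total counts of 29656 to 235292 limit what low genes can show, and a gene that was not called is not shown to be unchanged.

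The members and lists were chosen with earlier results of these data known. Named in each main comparison were the members of largest change among those called, or, with few calls, the members of largest change. Alternatives were DESeq2 1.42.0, RLE scaling, no filter, no replicate term, limma 3.58.1 on the deposited log2 values, each replicate left out, other sets of libraries and, chosen after the data were seen, copies added to their member, Mock libraries summed by replicate, and neighbouring days. The test was checked on simulated data. Positions come from GENCODE vM21 (GRCm38) and promoters from RefSeq.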

Additional observations from a re-analysis of the deposited data

Results flagged for a closer look

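In the Mock group, Nifk, which encodes a nucleolar protein of 60S processing, had 1 library at 472 CPM, far from the other 4, of which the nearest was at 284 CPM. The gap was 0.780 of the range of the 5 libraries, above the critical value of 0.71 of Dixon's test. This was 1 of 9 values examined in Mock (the summed members and 8 genes), and chance gives such a gap in about 1 of 20 groups. The 5 libraries came from 3 replicates, which the test does not take into account.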

How the results depend on the processing

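Of 1141 values of named genes under the alternatives, 928 stayed on their side of the threshold, 213 lost their call and 0 changed direction. The 928 include genes named without a call, such as those of largest fold at Day03, which had no call to lose. Called genes thus stayed less often than these numbers show. None of the ratios of summed members examined turned. Mock to Day06 was not among them. Without the members that have copies, the Mock mean (4781 CPM) lay below that of Day06 (5086 CPM). The median of the members for nt against Day06 changed sign, from 0.14 to -0.01 with RLE scaling and -0.13 without a filter. RLE scaling also moved the median of all tested genes, from -0.01 to -0.15, and relative to that shift the members kept their position. Counts below are of members called against Day00 for a day and against nt for an siRNA, "other" stands for the other ribosome biogenesis genes, and ratios are of the summed members; the causes were not tested.

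With DESeq2, 2 members were called at Day02, 4 at Day04 and 2 in siMyc, and of the other genes 1 at Day02, 0 at Day03, 2 at Day04 and 0 at Day06. With RLE scaling there were 2 members at Day02, and of the other genes 1 at Day01, 1 at Day02 and 0 at Day06, with ratios to Day00 of 1.45 at Day02, 2.14 at Day04, 2.35 at Day05 and 1.84 at Day06, of 1.51 for nt to Day06 and of 0.623 for siWdr5 to nt. Without a filter there were 3 members at Day01, 2 at Day02, 0 at Day03, 5 at Day04, 2 for nt against Day06, 1 in siEp300, 3 in siWdr5 and 18 over all siRNAs, and of the other genes 0 at Day03, 2 at Day04, 0 at Day06 and 4 for nt against Day06. Limma on the deposited log2 values called 2 members at Day02, 0 at Day03, 1 for nt against Day06, 0 in Mock, siMyc, siBard1 and siEp300, 1 in siWdr5 and 2 over all siRNAs, and of the other genes 4 at Day01, 1 at Day02, 0 at Day03 and 0 for nt against Day06.

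Without the replicate block, 0 members were called at Day03, 1 in Mock, 0 in siMyc, 1 in siEp300 and 12 over all siRNAs, and of the other genes 0 at Day03 and 0 at Day06. With the libraries of the 2 conditions only, there was 1 member in Mock and 2 in siMyc, and of the other genes 1 at Day01, 1 at Day02 and 0 at Day06. With all libraries of the table there were 0 at Day03, and with nt and Mock as the control 0 in siMyc. With copies added to their member there were 8 at Day01, 0 at Day03 and 44 over all siRNAs.

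With the Npm1 copies in the sum, the ratio was 3.06 for Day05 to Day00, 2.63 for nt to Day06, 0.757 for siMyc, 0.502 for siBard1, 0.634 for siEp300 and 0.420 for siWdr5 to nt. Without Npm1 and Ncl, ratios to Day00 were 1.81 at Day01, 1.39 at Day02, 1.91 at Day04, 2.10 at Day05 and 1.87 at Day06, that of nt to Day06 was 1.20 and that of siWdr5 to nt was 0.707. Without all members that have copies, they were 2.15 at Day04 and 2.22 at Day05, 1.16 for nt to Day06, 0.819 for siEp300 and 0.740 for siWdr5 to nt. As a share of all counts, Day01 to Day00 was 2.30 and nt to Day06 was 1.36.

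Leaving out 1 replicate at a time gave 2 to 3 members at Day02, 0 at Day03, 4 to 5 at Day04, 3 to 4 for nt against Day06, 0 to 2 in Mock, 0 in siMyc, 0 to 4 in siBard1, 0 to 2 in siEp300, 1 to 6 in siWdr5 and 2 to 18 over all siRNAs. Of the other genes it gave 0 to 1 at Day01, Day02 and Day03, 2 at Day04, 6 to 12 at Day05, 0 to 2 at Day06 and 3 to 9 for nt against Day06.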
